A study of Mus musculus with 2 samples.

Results

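The 10 genes described here take part in the activation of TGF-beta and in the response of cells to it: Tgfb1, Itgav, Itgb8, Thbs1, Tgfbr1, Tgfbr2, Smad7, Ski, Skil and Tgfbi. They were chosen by symbol and not by their values, and each symbol had 1 row among the 31253 genes listed in both libraries. Counts of unique molecules (UMIs) came from CD45-positive cells, which are cells of blood origin and microglia, sorted from GL261 gliomas grown in the brains of C57BL/6 mice. The ibudilast library came from mice given ibudilast, an inhibitor of phosphodiesterases, at 20 mg/kg into the stomach 5 times per week for 2 weeks. The PBS library came from mice given PBS on the same schedule, although a label of that library calls it untreated. Both groups carried the same injected tumour line. The sources used here state no number, age or sex of the mice behind each library. With 1 library per group no difference has a replicate check or a test, ratios compare these libraries and not the treatments, and all 95% intervals cover counting error only.

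TGF-beta is secreted in a latent complex, in which a propeptide wraps the mature cytokine. Integrins built on the alpha-v chain, among them alpha-v beta-8, activate it, and thrombospondin-1 can also do so. The active ligand binds the type II receptor, which brings in and phosphorylates the type I receptor, and SMAD proteins then carry the signal to the nucleus. In the brain microglia depend on TGF-beta for their identity, and in tumours the cytokine restrains T cells and NK cells.

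4 promoters were picked for printing: Tgfbr1, Tgfbr2 and Tgfbi were higher in macrophages than in monocytes while Tgfb1 was lower. Ski and Itgav were also higher in macrophages, and their promoters are not printed. RefSeq windows on GRCm38.p6 were found for 7 of the 10 genes. Only bases ahead of both the RefSeq and the GENCODE M21 start are given, 5′ to 3′ on the gene's strand. Capitals mark matches on either strand to a SMAD element (CAGAC), the core of a PU.1 site (GAGGAA), an AP-1 site (TGANTCA) or a GC box (GGGCGG). No match shown overlaps a match to another motif.
Tgfb1, chr7:25686752-25687001, plus strand: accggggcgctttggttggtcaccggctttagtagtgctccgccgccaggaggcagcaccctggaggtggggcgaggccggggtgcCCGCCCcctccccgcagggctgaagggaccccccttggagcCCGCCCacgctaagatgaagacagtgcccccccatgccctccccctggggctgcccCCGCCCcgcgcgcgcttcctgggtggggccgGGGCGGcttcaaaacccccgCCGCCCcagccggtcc
Tgfbr1, chr4:47352972-47353221, plus strand: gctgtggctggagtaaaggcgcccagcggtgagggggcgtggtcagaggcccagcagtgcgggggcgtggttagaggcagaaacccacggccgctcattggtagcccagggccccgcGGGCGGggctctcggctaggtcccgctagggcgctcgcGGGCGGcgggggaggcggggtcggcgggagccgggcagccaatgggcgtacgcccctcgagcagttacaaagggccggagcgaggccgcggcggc
Tgfbr2, chr9:116175364-116175613, minus strand: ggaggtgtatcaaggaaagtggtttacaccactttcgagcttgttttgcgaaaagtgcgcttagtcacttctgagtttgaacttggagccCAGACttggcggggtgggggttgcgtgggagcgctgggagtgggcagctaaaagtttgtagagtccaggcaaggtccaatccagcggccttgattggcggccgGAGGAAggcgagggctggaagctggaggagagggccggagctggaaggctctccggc
Tgfbi, chr13:56609336-56609522, plus strand: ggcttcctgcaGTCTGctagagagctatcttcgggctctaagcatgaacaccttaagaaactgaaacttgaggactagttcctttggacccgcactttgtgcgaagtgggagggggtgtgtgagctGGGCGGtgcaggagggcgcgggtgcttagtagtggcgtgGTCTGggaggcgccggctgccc
The Tgfb1 window held 5 GC boxes and the Tgfbr1 window 2, and 32.7% of 32851 promoter windows of 250 bases held at least 1. The Tgfbr2 window held 1 SMAD element and 1 PU.1 core, which 42.2% and 23.3% of such windows held. The 187 bases of Tgfbi held 2 SMAD elements and 1 GC box, which 34.2% and 22.2% of windows of that length held. No AP-1 site was found in the 4 windows, against 6.75% of windows of 250 bases and 5.14% of windows of 187 bases. These matches describe letters only.

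The ibudilast library held 8483 barcodes and 82196922 UMIs and the PBS library 8968 barcodes and 119113794 UMIs, and 19 barcode sequences occurred in both. After filtering, 6654 ibudilast cells (median 7857 UMIs) and 7666 PBS cells (median 11660 UMIs) remained. 16 cell types were gated cell by cell on marker genes, with cut-offs set after the data were seen, and they took in 4150 ibudilast cells and 5300 PBS cells. The gates held 967 ibudilast and 636 PBS monocytes (Ly6c2 high, C1q low). Cells with both Ly6c2 and C1q, here called monocyte-macrophages, were 549 and 495. Macrophages (C1q high, Ly6c2 low, with an Ms4a7 UMI and little Sparc) were 1042 and 2835 cells. Microglia, gated on Sparc with little Ms4a7, were 49 and 110 cells. Their level of Gpr34, a microglial gene that the gate did not use, was 154 and 206 CPM, against 9.60 and 16.9 CPM in macrophages. CPM is the summed UMIs of a gene divided by all UMIs of the gate and scaled to counts per 1000000. 94 of 118 ibudilast and 126 of 161 PBS cells gated as conventional CD4 T cells had at least 3 UMIs of Ikzf2, Il2ra and Ctla4, genes of regulatory T cells, so that gate is called by its rule, CD4 T cells with no Foxp3 UMI. Barcodes with T cell and macrophage RNA together, 578 and 601, were left out of the gates.

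Tgfb1 encodes the ligand itself. Its level was highest in monocytes, at 359 CPM (345 to 374) in the ibudilast library and 368 CPM (351 to 385) in the PBS library, and the ratio was 0.978 (0.918 to 1.04). Monocyte-macrophages had 245 and 242 CPM and macrophages 212 and 203 CPM, so monocytes stood 1.70-fold (1.61 to 1.79) above macrophages with ibudilast and 1.81-fold (1.72 to 1.90) with PBS. The intervals of the libraries overlapped in each of these 3 gates.
Among lymphocytes NK cells were high, at 252 CPM in both libraries, 2.08-fold above CD8 T cells with ibudilast (121 CPM) and 2.03-fold with PBS (124 CPM). Dendritic cells were divided. The type called cDC2 had 265 and 248 CPM, and migratory dendritic cells, which carry Ccr7, had 53.9 and 39.3 CPM, the lowest level of the 16 types in each library. Regulatory T cells had 194 and 185 CPM. In 14 of the 15 neighbouring pairs of cell types in the order of Tgfb1 levels the intervals overlapped, in each library.
Neutrophils were the 1 type of 15 with at least 50 Tgfb1 UMIs where the ratio was past 1.5-fold. They had 56 UMIs in 18 of 37 ibudilast cells (291 CPM) and 11 UMIs in 5 of 35 PBS cells (85.1 CPM), a ratio of 3.42 (1.77 to 7.24). The summed macrophage markers C1qa, C1qb, C1qc, Apoe, Ms4a7, Mrc1 and Adgre1 were also higher there, at 9289 and 4867 CPM, and their part in the result was not tested.

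**Figure D1:**
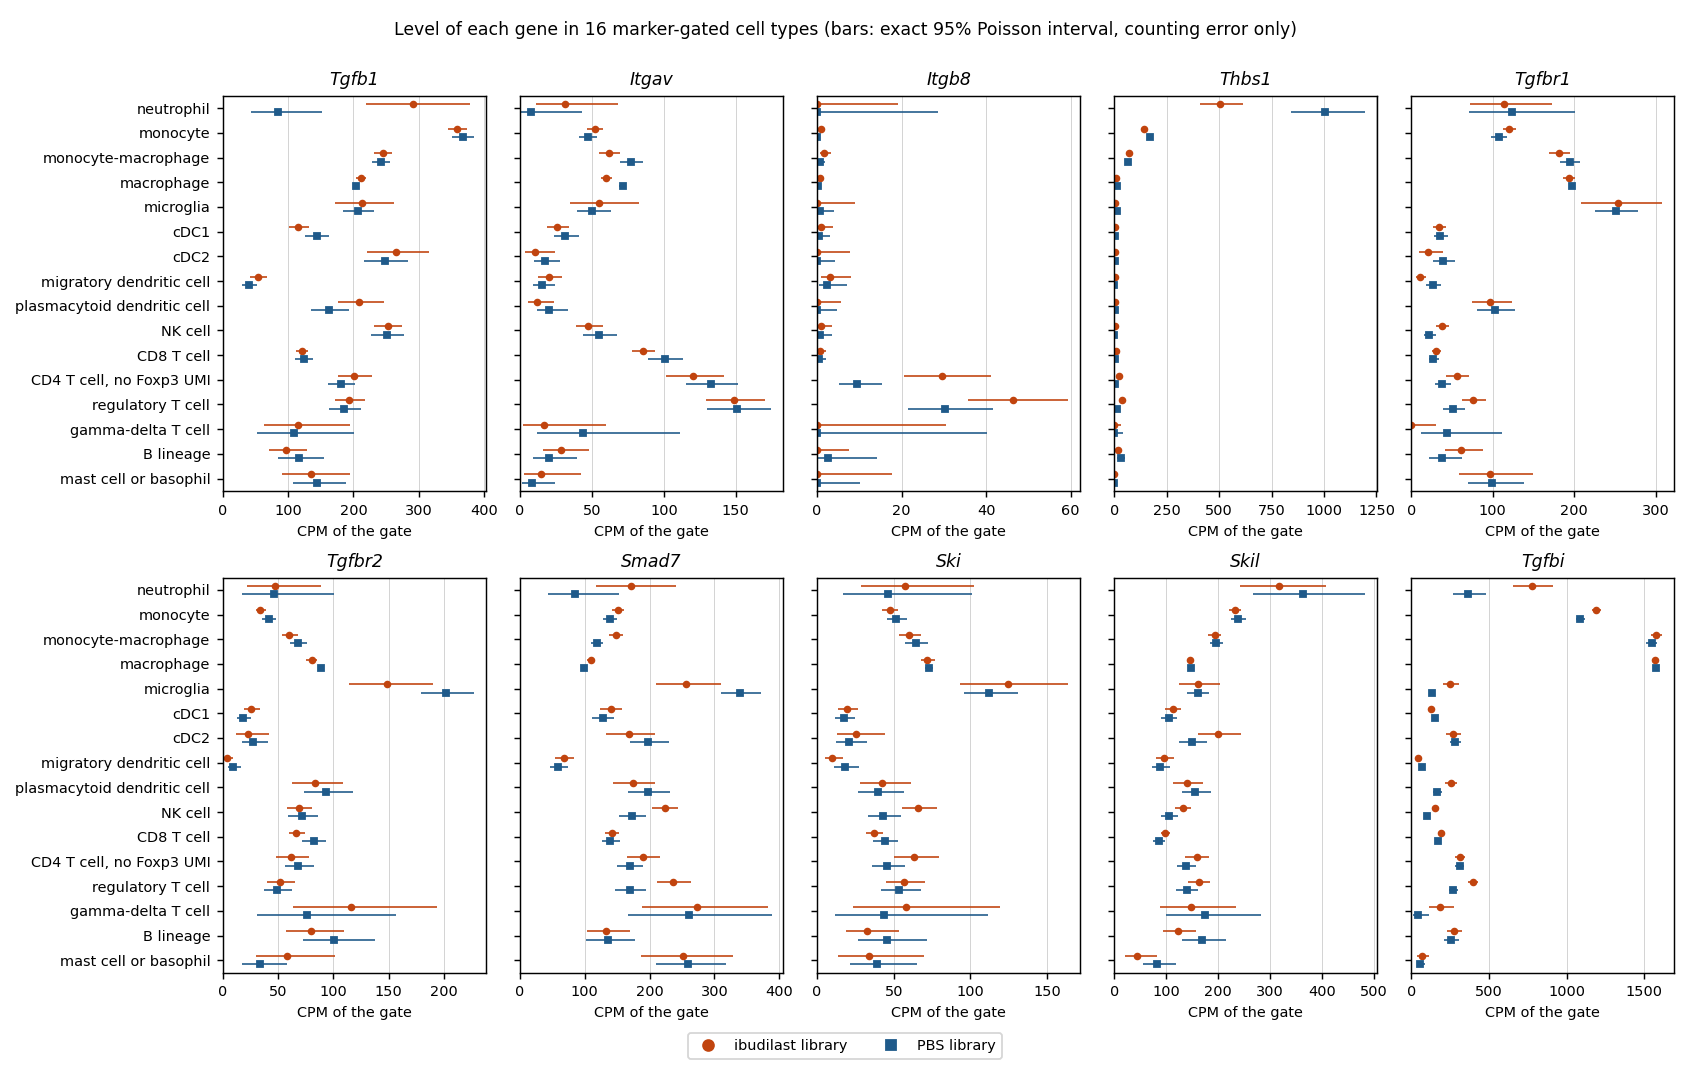
Level of each of the 10 genes in CPM (x axis, linear, own scale per panel) in 16 gated cell types (y axis), with the ibudilast library above the PBS library in each row. Bars are exact 95% Poisson intervals of the summed UMIs. Tgfb1 peaks in monocytes at 359 and 368 CPM, Itgb8 in regulatory T cells at 46.4 and 30.4 CPM, and Tgfbr2 in microglia at 149 and 202 CPM.

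Itgav (chr2:83724397-83806916, plus strand, GENCODE M21 on GRCm38) encodes the alpha-v integrin chain. It was highest in regulatory T cells, at 149 CPM (129 to 171) in the ibudilast library and 151 CPM (130 to 174) in the PBS library. CD4 T cells with no Foxp3 UMI followed with 120 and 132 CPM and CD8 T cells with 85.6 and 101 CPM, and the order of these 3 was alike in both libraries. Regulatory T cells stood 1.74-fold (1.46 to 2.06) above CD8 T cells with ibudilast and 1.501-fold (1.24 to 1.81) with PBS.
Macrophages had 59.997 and 71.5 CPM, a ratio of 0.839 (0.776 to 0.905), and monocyte-macrophages 61.8 and 77.4 CPM, a ratio of 0.799 (0.683 to 0.935). Both lay below 1 beyond counting error and short of 1.5-fold. Antisense genes overlap Itgav (Dnmt3l-ps1 and Gm13684) and Thbs1 (Gm29233) in the annotation, and the sources used here do not say how the counting used strand.

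Itgb8 (chr12:119158022-119238802, minus strand) encodes the beta-8 chain, the partner of alpha-v in an integrin that activates TGF-beta. Regulatory T cells held 64 UMIs in 35 of 105 ibudilast cells and 38 UMIs in 24 of 105 PBS cells. The levels were 46.4 CPM (35.8 to 59.3) and 30.4 CPM (21.5 to 41.7), a ratio of 1.53 (1.01 to 2.35). CD4 T cells with no Foxp3 UMI held 35 UMIs in 24 of 118 ibudilast cells and 15 UMIs in 12 of 161 PBS cells, or 29.6 and 9.33 CPM, a ratio of 3.17 (1.69 to 6.26).
In the other 14 gates Itgb8 was at or near 0. Barcodes that no gate took in also held it: kept cells had 447 and 288 UMIs in all, of which 135 and 78 lay in gates. Barcodes with T cell and macrophage RNA together, which were left out of the gates, held 124 and 126 Itgb8 UMIs. Their levels were 9.16 and 9.12 CPM, a ratio of 1.005 (0.778 to 1.30). Those barcodes were not divided by T cell type, and macrophage RNA is part of their divisor. Their ratio is therefore unlike those of the regulatory and CD4 T cell gates, and nothing about these gates is read from it. CD8 T cells held 4 UMIs in 459 ibudilast cells and 1 UMI in 250 PBS cells (0.791 and 0.371 CPM), although their median depths, 8886 and 8709 UMIs, were close to those of regulatory T cells, 9021 and 9516. Macrophages held 10 and 14 UMIs (0.727 and 0.296 CPM). No UMI was seen in 7 types of the ibudilast library and 6 of the PBS library, among them neutrophils, where a count of 0 allows up to 15.6 and 23.2 CPM.
The CD4 T cells with no Foxp3 UMI were divided by Ikzf2, Il2ra and Ctla4, a split chosen after the values were seen. Those with at least 3 UMIs of these genes had 31.9 CPM of Itgb8 in the ibudilast library (32 UMIs, 94 cells) and 8.10 CPM in the PBS library (11 UMIs, 126 cells). The others had 16.9 and 15.96 CPM, from 3 UMIs in 24 cells and 4 UMIs in 35 cells. Levels of Ikzf2 in the gate as a whole were 480 and 261 CPM and of Il2ra 211 and 109 CPM, higher in the ibudilast library as Itgb8 was, and their part in the result was not tested.
Both integrin chains were often found in the same cell. Of 35 ibudilast regulatory T cells with an Itgb8 UMI, 30 also had an Itgav UMI, and of 24 such PBS cells 20 did, while 86 and 77 of the 105 cells in each gate had an Itgav UMI. After thinning each cell to 1000 UMIs, 3.81% (1.05 to 9.47) of ibudilast and 6.67% (2.72 to 13.3) of PBS regulatory T cells had an Itgb8 UMI, so the higher unthinned share in the ibudilast library, 33.3% against 22.9%, was not detectable at that depth.  Lrrc32, which encodes GARP, the protein that holds latent TGF-beta on regulatory T cells, was also highest there, at 39.2 and 27.2 CPM.

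Thbs1 (chr2:118111876-118127133, plus strand) encodes thrombospondin-1. The highest level was in neutrophils, at 504 CPM (409 to 615) from 97 UMIs in the ibudilast library and 1006 CPM (840 to 1194) from 130 UMIs in the PBS library, a ratio of 0.501 (0.381 to 0.657). These were 37 and 35 cells, of which 15 and 18 had a UMI. Monocytes had 142 CPM (133 to 151) and 172 CPM (161 to 185), a ratio of 0.824 (0.749 to 0.906). Monocyte-macrophages had 72.8 and 67.3 CPM, a ratio of 1.08 (0.927 to 1.26), and macrophages 10.3 and 12.1 CPM, a ratio of 0.848 (0.700 to 1.02).
Monocytes thus stood 13.8-fold (11.6 to 16.6) above macrophages in the ibudilast library and 14.2-fold (12.8 to 15.9) in the PBS library. The gene was uneven within monocytes: 24.8% and 28.5% of cells had a UMI, and the 10% of cells with most Thbs1 UMIs held 75.7% and 72.4% of them. Platelets store thrombospondin-1, and the summed platelet markers Ppbp, Gp9, Itga2b, Gp1bb and Treml1 were at 1.06 and 0.854 CPM in monocytes and at 0 in neutrophils of both libraries.
Summing monocytes, monocyte-macrophages and macrophages gave another picture. Over the 3 gates together Thbs1 was at 56.7 CPM (53.8 to 59.7) in the ibudilast library and 30.01 CPM (28.6 to 31.5) in the PBS library, a ratio of 1.89 (1.76 to 2.03), which is above the ratio within any of them. Monocytes made up 14.5% of kept ibudilast cells and 8.30% of kept PBS cells, and macrophages 15.7% and 37.0%. Monocytes carried 56.7% and 42.3% of all gated Thbs1 UMIs.
Within macrophages the level followed the subset. Macrophages with Arg1 had 49.2 CPM (9 UMIs, all in 1 cell) and 68.6 CPM (105 UMIs), and those with Gpnmb 39.9 and 33.7 CPM. Those with Cxcl9, a chemokine induced by interferon-gamma, had 6.04 and 8.32 CPM. Macrophages with none of the 3 markers had 5.90 and 8.92 CPM.
Among lymphocytes, regulatory T cells held 49 Thbs1 UMIs in 13 cells of the ibudilast library and 14 UMIs in 5 cells of the PBS library, 35.5 and 11.2 CPM, a ratio of 3.18 (1.73 to 6.23). There were 75.5 and 53.0 Thbs1 UMIs per 1000 Ly6c2 UMIs in these cells, 32.6 and 41.4 in monocytes and 51.6 and 126 in macrophages. Neutrophils had 227 and 929 and CD8 T cells 6.85 and 3.33. Monocytes and macrophages were gated on Ly6c2, and CD8 T cells held 1011 and 1115 CPM of it. The divisor is therefore unlike between gates, and no source of the Thbs1 UMIs is read from these values. The summed macrophage markers in regulatory T cells were 7161 and 5498 CPM, and their part in the result was not tested. The higher ibudilast level was not particular to regulatory T cells. CD4 T cells with no Foxp3 UMI held 26 and 4 Thbs1 UMIs, a ratio of 8.84 (3.07 to 34.9). CD8 T cells held 35 and 10 and NK cells 11 and 2, with intervals that held 1. Barcodes with T cell and macrophage RNA together had a ratio of 1.47 (1.18 to 1.84). B-lineage cells went the other way, at 20.5 and 30.3 CPM from 10 and 12 UMIs.

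**Figure D2:**
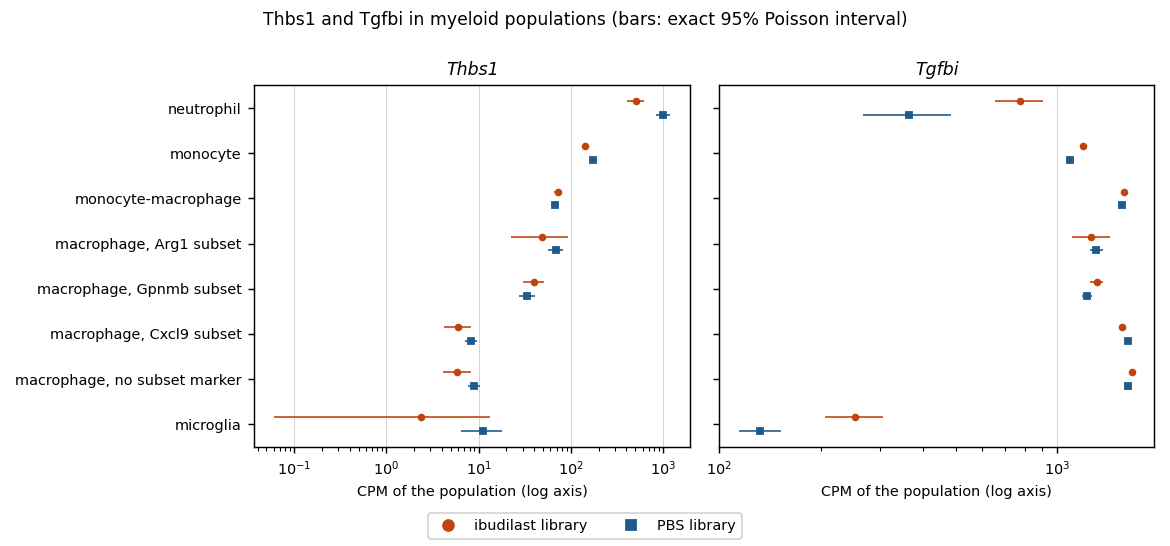
Thbs1 (left) and Tgfbi (right) in CPM on log x axes in 8 myeloid populations (y axis), with the ibudilast library above the PBS library in each row and exact 95% Poisson intervals. Thbs1 is highest in neutrophils, at 504 and 1006 CPM. It is at 5.90 and 8.92 CPM in macrophages without a subset marker and at 2.40 and 11.2 CPM in microglia. Tgfbi is above 1000 CPM in every monocyte and macrophage population and at 252 and 133 CPM in microglia.

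Tgfbr1 and Tgfbr2 encode the type I and type II receptors. Both were highest in microglia in each library. Tgfbr1 was at 254 CPM (208 to 308) in ibudilast microglia and 251 CPM (226 to 279) in PBS microglia, a ratio of 1.01 (0.807 to 1.26). Macrophages had 193 and 197 CPM, so microglia stood 1.32-fold (1.07 to 1.60) and 1.27-fold (1.14 to 1.42) above them. Tgfbr2 was at 149 CPM (114 to 191) in ibudilast and 202 CPM (180 to 227) in PBS microglia, a ratio of 0.735 (0.549 to 0.970). Macrophages had 80.3 and 89.1 CPM, a ratio of 0.901 (0.842 to 0.963).
Receptor levels were lower in monocytes than in macrophages. Tgfbr2 was at 34.0 and 41.4 CPM in monocytes, so macrophages stood 2.36-fold (2.04 to 2.73) above them in the ibudilast library and 2.15-fold (1.86 to 2.50) in the PBS library. For Tgfbr1, at 120 and 107 CPM in monocytes, the factors were 1.60 (1.48 to 1.74) and 1.84 (1.68 to 2.02).
The receptors were ordered differently among lymphocytes. Tgfbr1 in CD8 T cells was at 30.6 and 27.1 CPM, far below its level in macrophages. Tgfbr2 in CD8 T cells was at 66.6 and 82.1 CPM, a ratio of 0.812 (0.683 to 0.966), and lay nearer to its level in macrophages. Regulatory T cells had 75.4 and 51.2 CPM of Tgfbr1, a ratio of 1.47 (1.07 to 2.05), and stood 2.46-fold and 1.89-fold above CD8 T cells. Migratory dendritic cells had the lowest Tgfbr2 level in both libraries, 3.96 and 9.01 CPM, from 5 and 11 UMIs.
NK cells differed between libraries in Tgfbr1, with 79 UMIs in 348 ibudilast cells (37.6 CPM) and 34 UMIs in 176 PBS cells (21.9 CPM), a ratio of 1.72 (1.14 to 2.65). Their Tgfbr2 levels were 68.5 and 71.3 CPM, a ratio of 0.960 (0.744 to 1.24). The content of the NK cell gate also differed: Eomes, an NK cell gene, was at 228 and 154 CPM, summed cycling markers at 125 and 215 CPM and summed haemoglobin genes at 387 and 17.4 CPM. Their part in the NK cell ratios of Tgfbr1 and Ski was not tested.

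Smad7, Ski and Skil encode brakes on the pathway. Smad7 is an inhibitory SMAD, itself induced by TGF-beta, and Ski and SnoN (from Skil) bind SMADs and recruit corepressors. Smad7 was at 257 CPM (210 to 310) in ibudilast and 340 CPM (310 to 371) in PBS microglia, a ratio of 0.755 (0.607 to 0.933) that turned to 1.07 in cells thinned to 1000 UMIs, against 109 and 98.4 CPM in macrophages. Microglia therefore stood 2.35-fold (1.91 to 2.86) and 3.45-fold (3.14 to 3.79) above macrophages. In the ibudilast library gamma-delta T cells had 273 CPM, from 33 UMIs, with an interval (188 to 383) that overlapped that of microglia.
Smad7 was higher in the ibudilast library, short of 1.5-fold, in several gates. Regulatory T cells had 236 and 169 CPM, a ratio of 1.40 (1.17 to 1.67), NK cells 223 and 172 CPM, a ratio of 1.30 (1.11 to 1.51), and monocyte-macrophages 148 and 119 CPM, a ratio of 1.246 (1.11 to 1.39). The direction did not hold under every setting: with cells in clusters of the same gate the ratio was 0.965 in monocyte-macrophages, and in NK cells thinned to 1000 UMIs it was 0.949. In macrophages the ratio was 1.11 (1.05 to 1.18), at 1.34 (1.23 to 1.45) in those with Cxcl9 and 0.939 (0.855 to 1.03) in those without a subset marker. Barcodes with at least 20 UMIs of the oligodendrocyte genes Mbp, Mag and Mog, 49 and 17 of them, had Smad7 at 339 and 335 CPM. The same 3 genes summed to 57.1 and 32.8 CPM in macrophages, 100.3 and 35.3 CPM in NK cells and 83.4 and 41.6 CPM in regulatory T cells. Their part in the result was not tested.
Ski was highest in microglia, at 125 CPM (93.2 to 164) and 112 CPM (95.7 to 131), against 71.9 and 73.1 CPM in macrophages and 47.3 and 51.6 CPM in monocytes. NK cells had 66.1 and 43.1 CPM, a ratio of 1.53 (1.14 to 2.09). Skil ran the other way among myeloid cells, with 317 and 364 CPM in neutrophils, 232 and 239 CPM in monocytes and 147 and 149 CPM in macrophages. Monocytes stood 1.58-fold (1.48 to 1.69) and 1.60-fold (1.504 to 1.71) above macrophages. The Skil ratios in these 3 gates were 0.872, 0.972 and 0.986, and each interval held 1.

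Tgfbi encodes a secreted matrix protein named for its induction by TGF-beta. It was at 1568 CPM (1547 to 1589) in ibudilast and 1577 CPM (1565 to 1588) in PBS macrophages, a ratio of 0.994 (0.979 to 1.01). Monocyte-macrophages had 1577 and 1548 CPM and monocytes 1191 and 1087 CPM, a ratio of 1.10 (1.06 to 1.14) for monocytes. The 2 libraries were thus close in the gates that hold most of the gene's UMIs.
Microglia, with the highest receptor levels, had 252 CPM (206 to 305) with ibudilast and 133 CPM (114 to 153) with PBS, a ratio of 1.90 (1.48 to 2.42). Macrophages stood 6.22-fold (5.14 to 7.61) and 11.9-fold (10.3 to 13.8) above them. Ms4a7, a gene of infiltrating macrophages, was at 103 and 91.4 CPM in microglia and 1303 and 948 CPM in macrophages. The microglia gate was limited by Ms4a7 and the macrophage gate required it, so the gates set that contrast. Monocyte genes were higher in ibudilast microglia, Ccr2 at 93.6 and 12.6 CPM and Ly6c2 at 76.8 and 21.6 CPM, and their part in the result was not tested.
In CD8 T cells and NK cells a few barcodes held most Tgfbi UMIs. In CD8 T cells it was at 193 and 170 CPM, with 72.0% and 64.5% of the UMIs in the 10% of cells with most. In NK cells it was at 153 and 102 CPM, a ratio of 1.498 (1.24 to 1.82), with 80.1% and 56.0% of the UMIs in such cells. After thinning to 1000 UMIs, 5.49% (3.34 to 8.44) of ibudilast and 9.09% (5.29 to 14.3) of PBS NK cells had a Tgfbi UMI, against 72.7% and 75.8% of macrophages. Regulatory T cells had 395 and 269 CPM, a ratio of 1.46 (1.28 to 1.68), while 21.9% and 22.9% of them had a Tgfbi UMI after thinning. Summed macrophage markers in these cells were 7161 and 5498 CPM, Ms4a7 267 and 126 CPM and Ly6c2 471 and 211 CPM, and their part in the result was not tested. The direction in NK cells was opposite by share of cells and by CPM, and no order is read from it.

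The gates monocyte, monocyte-macrophage and macrophage were each cut in 2 by C1q level, which gave 6 steps. The first step held monocytes with under 10 C1q UMIs per 10000 and the last macrophages with 200 or more. Thbs1 was at 141 CPM (131 to 152) and 161 CPM (147 to 175) in the first step. In the second it was no lower, at 145 CPM (127 to 164) and 199 CPM (177 to 224), and in the last it was at 8.12 and 11.7 CPM. It was at 125 and 102 CPM in the third step, 43.6 and 48.1 CPM in the fourth and 13.3 and 12.7 CPM in the fifth. The fourth step and the fifth are parted by the Ly6c2 gate and not by C1q: Ly6c2 was at 2493 and 2577 CPM in the fourth and 226 and 113 CPM in the fifth, while C1qa was at 7169 and 7497 CPM and then 6167 and 6590 CPM. Tgfb1 was at 376 and 389 CPM in the first step and 213 and 204 CPM in the last, and Skil and Smad7 were likewise lower in the last.
The receptors were higher in the last step than in the first. The steps were cut from the Ly6c2 and C1q levels of each cell, so they are ranges and not cell types. Tgfbr2 was at 31.0 and 39.1 CPM in the first step and 89.6 and 97.7 CPM in the last. Tgfbr1 was at 108 and 93.9 CPM in the first and 205 and 210 CPM in the last. Its course was not steady, with 183 and 205 CPM in the fourth step and 175 and 178 CPM in the fifth. The intervals of those steps overlapped in the ibudilast library but not in the PBS library (189 to 221 and 172 to 184). Ski was at 45.4 and 46.6 CPM in the first and 73.9 and 74.99 CPM in the last. Median depth per cell was also higher in the last step, 12628 and 15873 UMIs, than in the first, 6716 and 7655 UMIs. CPM divides by depth, and the part of depth in these patterns was not tested.

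**Figure D3:**
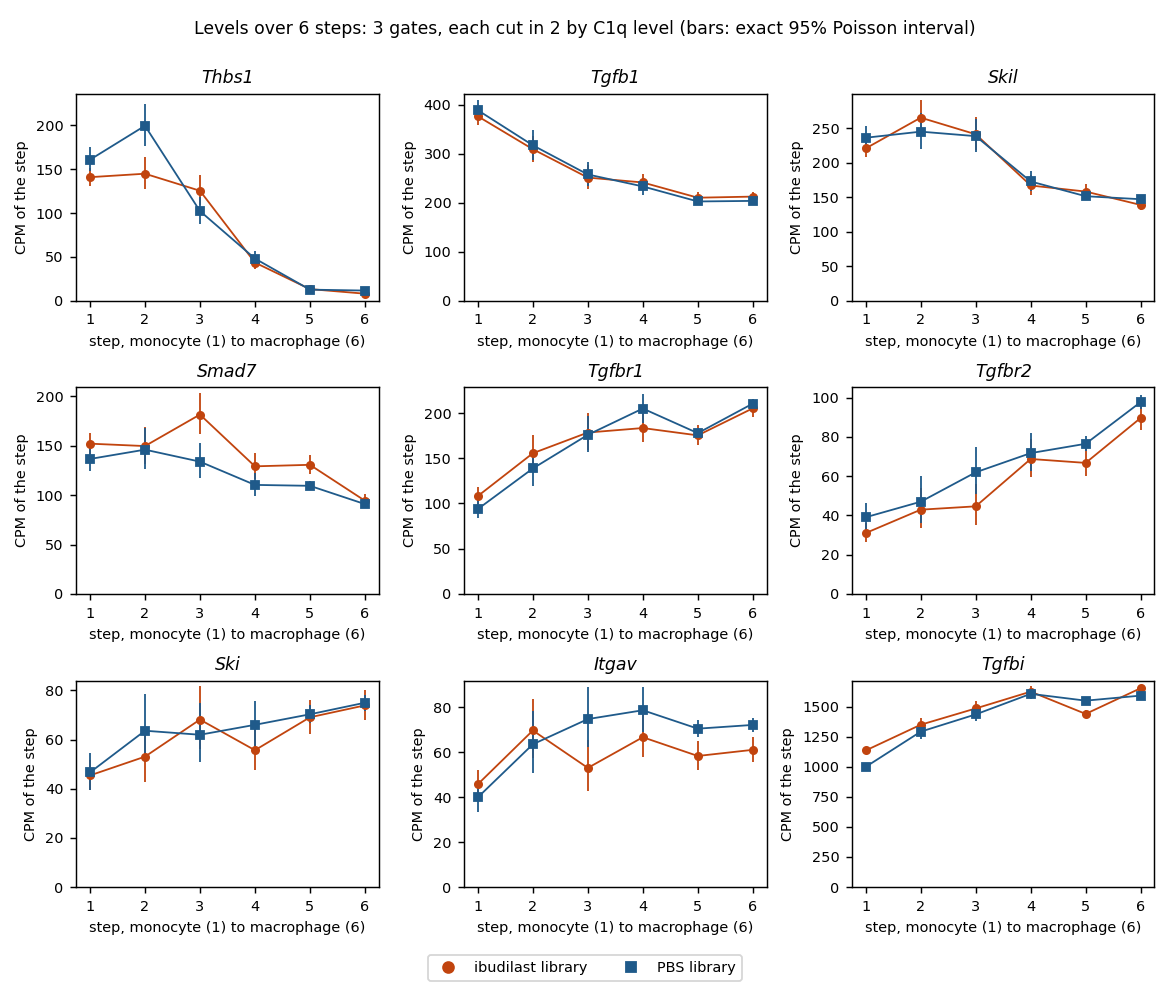
Level of 9 of the genes in CPM (y axis, linear, starting at 0) over 6 steps (x axis): monocytes (1, 2), monocyte-macrophages (3, 4) and macrophages (5, 6), each cut in 2 by C1q level, in the ibudilast library (circles) and the PBS library (squares), with exact 95% Poisson intervals. Thbs1 is at 145 and 199 CPM in step 2 and goes down to 8.12 and 11.7 CPM in step 6, while Tgfbr2 goes up to 89.6 and 97.7 CPM. The lines of the libraries part in places, as for Thbs1 in step 2 and Smad7 in step 3.

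The counts of members past 1.5-fold were set beside those over all genes. Among monocytes, 9 of the 10 genes had at least 50 UMIs, and 0 were higher and 0 lower by 1.5-fold or more, where 3.27% and 2.24% of 8583 genes were. In monocyte-macrophages the counts were again 0 higher and 0 lower of 9, against 2.88% and 2.1% of 8540 genes. Macrophages had 0 higher and 0 lower of 9, against 4.1% and 2.07% of 11174 genes. In CD8 T cells 0 of 8 were higher and 0 lower, against 3.97% and 1.75% of 8438 genes. With so few members these shares are near the background. NK cells had 2 of 8 higher, Tgfbr1 and Ski, against 7.48% of 6400 genes, and 0 lower, against 5.77%.
The median log2 ratio of the members was -0.03 in monocytes, -0.02 in monocyte-macrophages, -0.02 in macrophages, 0.36 in NK cells and -0.01 in CD8 T cells. Over all genes it was 0.002, 0.01, 0.02, 0.02 and 0.03.

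**Figure D4:**
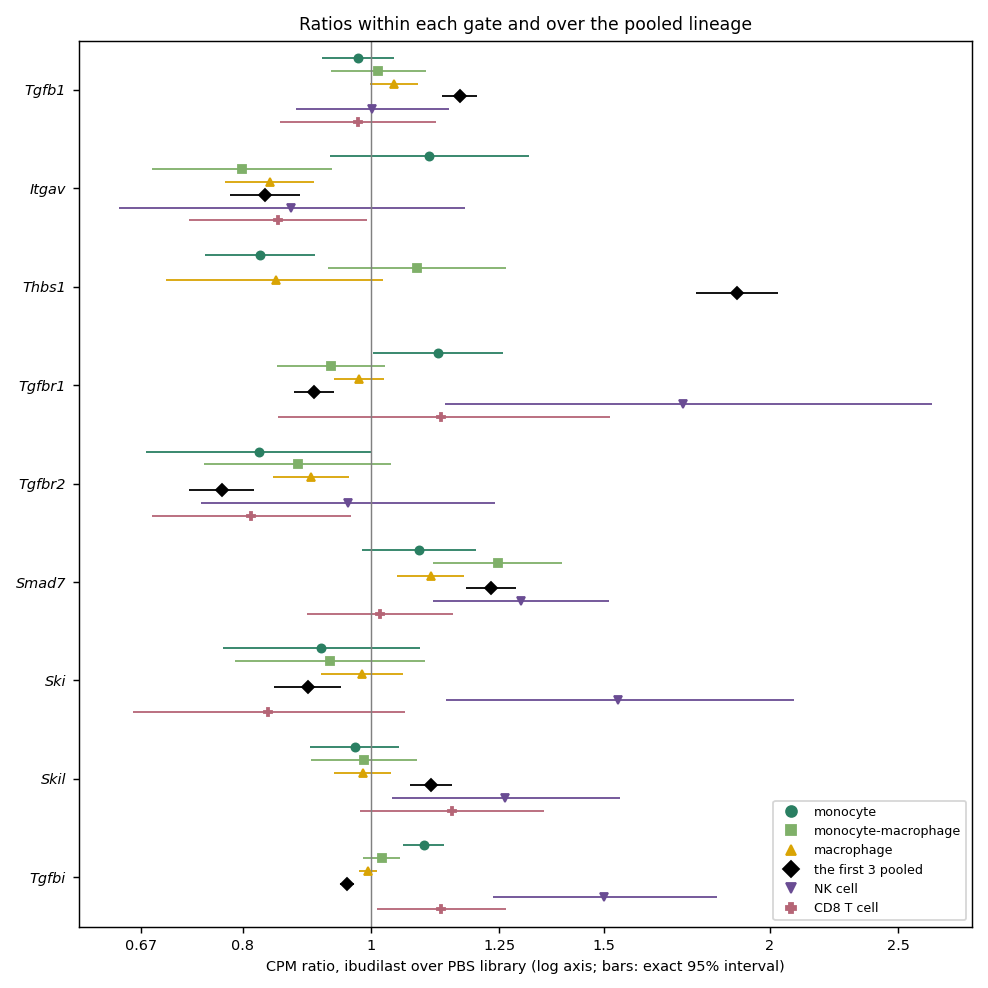
Ratio of CPM, ibudilast over PBS library (x axis, log scale), for 9 of the genes (y axis) in 5 gates and over monocytes, monocyte-macrophages and macrophages pooled (diamonds), where at least 50 UMIs were found. Bars are exact 95% intervals. The pooled Thbs1 ratio of 1.89 lies to the right of its 3 gates at 0.824, 1.08 and 0.848, and the NK cell ratios of Tgfbr1 and Ski lie at 1.72 and 1.53.

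The other genes of the pathway were taken from a list of 47. In monocytes 33 had at least 50 UMIs, of which 1 was higher and 5 were lower by 1.5-fold or more, against 3.27% and 2.24% of all genes, with a median log2 ratio of -0.11, against 0.002 over all genes. Among the lower ones Fn1, which encodes fibronectin, was at 172 and 294 CPM, a ratio of 0.585 (0.540 to 0.633), and Id3 at 42.1 and 63.6 CPM, a ratio of 0.661 (0.560 to 0.781). Inhba (30 and 35 UMIs) and Smad5 (26 and 28 UMIs) had ratios of 0.608 and 0.658 with intervals that held 1. Acvr1b, which encodes an activin receptor, was the higher one, at 11.95 and 6.83 CPM.
In macrophages 36 had at least 50 UMIs, of which 2 were higher and 3 lower, against 4.1% and 2.07% of all genes, with a median log2 ratio of 0.03, against 0.02 over all genes. Ltbp3 (12 and 109 UMIs, ratio 0.379) and Cd36 (16.9 and 28.4 CPM, ratio 0.596) were among the lower ones. Id3 was higher there, at 6.76 and 3.28 CPM, a ratio of 2.06 (1.58 to 2.68), the reverse of monocytes, and Itgae had a ratio of 1.51 (1.16 to 1.94). In monocyte-macrophages Acvr1b alone of 32 was past 1.5-fold, with a ratio of 1.78, where 2.88% of all genes were higher and 2.1% lower.
Pmepa1, a TGF-beta target that feeds back on SMADs, was at 309 and 405 CPM in macrophages, a ratio of 0.761 (0.736 to 0.787), at 132 and 191 CPM in monocyte-macrophages, a ratio of 0.691 (0.623 to 0.766), and at 68.1 and 73.4 CPM in monocytes, a ratio of 0.927 (0.804 to 1.07). Smad7, another target, had ratios of 1.11 in macrophages, 1.246 in monocyte-macrophages and 1.09 in monocytes, the last of which turned to 0.938 in cells thinned to 1000 UMIs. Nrros, which tethers latent TGF-beta on myeloid cells, was at 124 and 122 CPM in monocytes and 80.8 and 77.3 CPM in macrophages. Itgb5, another partner of alpha-v, was at 535 and 572 CPM in microglia and 242 and 266 CPM in macrophages. Itgae, a TGF-beta target in T cells, was highest in the dendritic cells called cDC1, at 388 and 473 CPM. Itgb6 had no UMI in the 16 types of the ibudilast library, and in the PBS library 1 UMI in B-lineage cells and 2 UMIs in mast cells or basophils.

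Genes whose levels ran most like those of a member were found by Pearson correlation over 32 points, 16 types in each of 2 libraries, among 9321 genes. Points of 1 library share its depth and free RNA, so the values describe and do not test. The gene most like Thbs1 was Trem3 (r = 0.938), followed by Clec4d (r = 0.910). Tgfbi ran with Klra2 (r = 0.918) and Clec4a3 (r = 0.915), Tgfbr1 with Ccl2 (r = 0.899), and Tgfb1 with Crlf2 (r = 0.869). For Tgfbr2 the closest were Macf1 (r = 0.899) and another member, Ski (r = 0.845). Itgb8 ran with Tctex1d1 (r = 0.893) and C2cd4b (r = 0.888).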

How the data were processed

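Single-cell RNA-seq (10x Genomics 3' V3.1) gave 1 ibudilast and 1 PBS library. The deposited values are whole-number UMI counts per gene and barcode. Per the file headers the authors ran Cell Ranger 6.1.1, and the submitters' processing notes name mm10. Barcodes with at least 300 genes, 500 UMIs and under 10% mitochondrial UMIs were kept. Scrublet (scanpy 1.11.5) set a threshold that marked 0 barcodes in either library, so the top 6% by doublet score were removed (425 ibudilast, 489 PBS). Cell types were gated on marker UMIs, and cells meeting several gates were left out (23 and 12).

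UMIs were summed per gate and library and given as CPM, with exact Poisson intervals, exact conditional binomial intervals for ratios and Clopper-Pearson intervals for shares of cells thinned to 1000 UMIs (scipy 1.17.1). A count of 0 was given the limit of 3 counts. Where few cells hold most UMIs the intervals are too narrow. Genes with at least 50 UMIs over both libraries were called at 1.5-fold. The ratio code was tested on simulated counts. The genes named are the members, pathway genes past 1.5-fold in the monocyte and macrophage gates, and 7 pathway genes always named. Members, lists and gate limits were chosen with earlier results of these data known. Alternatives changed the cell filter, doublets, scaling (edgeR 4.0.16 TMM factors, no test), gates, depth, the minimum of UMIs and the fold. Values of some listed genes are not reported here.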

Additional observations from a re-analysis of the deposited data

Results flagged for a closer look

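Thbs1 and Tgfbi had ratios between the libraries in some cell types that ran opposite to those in others; the differences between cell types were not tested. For Thbs1 the ratio was 3.18 in regulatory T cells and 0.501 in neutrophils, against 0.824 in monocytes. The regulatory T cell value rests on 13 ibudilast cells and 5 PBS cells with a UMI, and the neutrophil value on 15 and 18 cells.

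For Tgfbi the ratio was 2.13 in neutrophils (775 and 364 CPM), 1.9 in microglia (252 and 133 CPM), 1.53 in plasmacytoid dendritic cells (253 and 165 CPM) and 0.574 in migratory dendritic cells (40.4 and 70.5 CPM), against 0.994 in macrophages. Summed macrophage markers in neutrophils were 9289 CPM in the ibudilast library and 4867 CPM in the PBS library, and thinned to 1000 UMIs the neutrophil ratio was 1.06. Ccr2 in microglia was at 93.6 and 12.6 CPM, and summed macrophage markers were 4022 and 3383 CPM in plasmacytoid dendritic cells and 1453 and 2157 CPM in migratory dendritic cells. The part of these markers in the ratios was not tested.

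Itgb8 was also found outside the gated immune cells. Barcodes with at least 20 UMIs of the oligodendrocyte genes Mbp, Mag and Mog had 111.0 CPM (86.0 to 140.5) in the ibudilast library (68 UMIs in 21 of 49 barcodes) and 151 CPM (103 to 213) in the PBS library (32 UMIs in 10 of 17 barcodes). The ratio was 0.734 (0.476 to 1.16). The order of the libraries changed with the markers that defined these barcodes, a choice made after the data were seen, and no direction is read from it.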

How the results depend on the processing

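Of the ratios recomputed under another setting, 636 stayed within their counting interval and 76 moved beyond it. Of those past 1.5-fold, 1 reversed: Tgfbi in migratory dendritic cells was 1.02 with doublets kept. Among smaller ratios Smad7 turned direction in monocytes, monocyte-macrophages, microglia and NK cells (lowest 0.938, 0.965, 0.570 and 0.949, highest 1.13, 1.51, 1.07 and 1.33). It also did so in cDC1, plasmacytoid and migratory dendritic cells, CD8 T cells, B-lineage cells and mast cells or basophils. Ratios of other members crossed 1 as well, such as Skil in CD4 T cells with no Foxp3 UMI (0.602 to 1.15). Thinning to 1000 UMIs moved 38 of 72 ratios. Over the settings the Thbs1 ratio ran between 0.671 and 0.835 in monocytes, 0.766 and 1.29 in monocyte-macrophages and 3.105 and 4.88 in regulatory T cells. The Itgb8 ratio in regulatory T cells ran between 1.42 and 1.68, but thinning is not among the settings behind that range. After thinning, the share of regulatory T cells with an Itgb8 UMI was lower in the ibudilast library, 3.81% against 6.67%, with overlapping intervals. In NK cells Tgfbr1 ran between 1.27 and 1.82, Ski between 1.44 and 1.92 and Tgfbi between 0.658 and 2.32. Counts of members past the fold moved as follows. In NK cells 1 was higher with the stricter cell filter, 1 with each cell weighted alike, 1 with cells in clusters of the same gate (and 1 lower), and 5 at a smaller fold limit. In monocyte-macrophages 1 was lower with cells in clusters of the same gate and 1 at the smaller fold limit. With no minimum of UMIs 1 was higher in monocyte-macrophages, 1 in macrophages and 2 in CD8 T cells. Of the pathway list with no minimum, 4 were higher in monocytes, 2 higher and 1 lower in monocyte-macrophages, and 4 higher and 5 lower in macrophages. At the smaller fold limit 2 were higher in monocytes, 4 higher and 5 lower in monocyte-macrophages and 7 lower in macrophages. The cause was not tested, apart from the settings on fold and minimum, which change the calls by construction. The clusters setting gave no cDC2 cells. No replicate could be left out and no level compared over mice, since each group is 1 library. No paired analysis was possible because the 2 groups hold 1 library each and no result comes from a test. Depth limits Itgb8 and Thbs1 in lymphocytes and all genes in neutrophils, microglia and gamma-delta T cells.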
